A study of Mus musculus with 12 samples.

Results

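The matrix-binding integrins of the aortic wall were taken as 10 genes given by symbol, 7 α subunits (Itga1, Itga5, Itga7, Itga8, Itga9, Itga11 and Itgav) and 3 β subunits (Itgb1, Itgb3 and Itgb5). All 10 were found by symbol among the 55092 features of the expression table, and all 10 were abundant enough to be tested. RNA-Seq of abdominal aorta was available from 12 male mice, with 1 library per mouse and 3 mice in each of 4 groups. CFS mice were CCN2fl/fl mice given saline, CSS mice were CCN2SMCΔ mice given saline, CFA mice were CCN2fl/fl mice given Ang II, and CSA mice were CCN2SMCΔ mice given Ang II. The pumps ran for 7 days, and Ang II was delivered at 500 ng/kg/min. The study that reported these data found infrarenal aneurysms in nearly all CCN2SMCΔ mice after this Ang II regimen. In CCN2fl/fl mice it found a few mild ones. Whether each sequenced mouse had an aneurysm is not given in the labels, so genotype and aneurysm cannot be told apart in CSA. CCN2SMCΔ mice carried floxed Ccn2 alleles and Myh11-Cre-ERT2, a tamoxifen-inducible Cre driven by a smooth muscle myosin promoter, so the deletion was restricted to smooth muscle cells (SMCs) and other cells kept the gene. The CCN2fl/fl mice carried the floxed alleles without Cre, and all animals had 5 doses of tamoxifen at 8 weeks of age followed by 2 weeks without it.

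Integrins are receptors made of 1 α and 1 β chain that span the cell membrane, hold matrix proteins outside and couple through talin and kindlin to the actin cytoskeleton inside. The β1 chain pairs with most α chains of the wall, giving receptors for collagen (α1β1, α11β1), laminin (α7β1), fibronectin (α5β1), nephronectin (α8β1) and tenascin-C or osteopontin (α9β1), whereas αv pairs with β1, β3 or β5 to bind vitronectin, fibronectin and latent TGF-β. In the normal media, α8β1 and α7β1 are known as receptors of contractile SMCs, and α11β1 is known from collagen-producing fibroblasts. CCN2, the deleted protein, is itself a matricellular ligand of several integrins.

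Promoter sequence, taken from RefSeq on GRCm38.p6, was found for 8 of the 10 subunits and is shown for Itga8, the subunit with the lowest relative level in CSA, for Itga11, the subunit that was higher there, and for Itga5, the fibronectin receptor chain, whose promoter held matches to a searched motif. Each run covers the 250 bases before the RefSeq start, read 5′ to 3′ on the strand of the gene, and capitals mark the GC box. Itga8 lies on the minus strand (chr2:12301945-12302194), Itga11 on the plus strand (chr9:62677605-62677854) and Itga5 on the minus strand (chr15:103366792-103367041).
Itga8: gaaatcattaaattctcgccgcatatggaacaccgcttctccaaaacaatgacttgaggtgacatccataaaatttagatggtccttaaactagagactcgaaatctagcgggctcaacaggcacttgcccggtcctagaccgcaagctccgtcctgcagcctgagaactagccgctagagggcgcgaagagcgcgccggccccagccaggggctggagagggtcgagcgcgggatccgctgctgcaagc
Itga11: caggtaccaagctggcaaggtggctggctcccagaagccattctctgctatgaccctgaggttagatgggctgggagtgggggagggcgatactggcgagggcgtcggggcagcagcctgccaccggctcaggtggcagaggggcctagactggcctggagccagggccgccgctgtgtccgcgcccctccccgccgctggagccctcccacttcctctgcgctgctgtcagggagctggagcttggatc
Itga5: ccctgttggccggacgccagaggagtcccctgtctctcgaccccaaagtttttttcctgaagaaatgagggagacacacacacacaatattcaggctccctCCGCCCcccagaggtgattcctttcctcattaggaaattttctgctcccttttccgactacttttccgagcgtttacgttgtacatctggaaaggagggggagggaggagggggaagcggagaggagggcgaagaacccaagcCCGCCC
Motifs were searched as letters on both strands, and no match overlapped another. The GC box (GGGCGG) stood in 3 of the 8 promoters, those of Itga5 (149 and 6 bases before the start), Itgb1 (151 bases) and Itgb5 (199, 63 and 34 bases), and in 32.7% of 32851 RefSeq promoters of the same length. The window of Itga9 (chr9:118711442-118711691) lies inside the annotated gene, downstream of the start given below, so it does not stand at that start. A TEAD motif (GGAATG) stood in 1 of the 8, that of Itgb1, 7 bases before the start, and in 12.6% of all promoters. Neither the CArG box, the element bound by serum response factor, nor the AP-1 motif (TGANTCA) was matched in these 8 windows, and they stood in 1.47% and 6.75% of all promoters. These counts describe letters in a short window only.

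The deposited values are FPKM, the fragments of a gene scaled to its length and put on a common scale between libraries by a factor not given in the sources used here, so levels may be compared between subunits. Recovered depth ranged from 14555508 fragments (CSA mouse 03) to 23102751 (CFA mouse 71), and the thinnest subunit value, Itga11 in CFS mouse 70, rested on 131 fragments. As a check of the target, Ccn2 averaged 328 ± 71.9 FPKM in CSA (SD, n = 3) against 894 ± 289.7 in CFA and 554 ± 105.9 in CSS against 766 ± 318 in CFS, and it was lower in CSA than in CFA (log2 fold change -1.41, SE 0.34, limma, Benjamini-Hochberg adjusted p = 0.0062) but did not pass between the saline groups (-0.40, adjusted p = 1), where it was -0.09 without CFS mouse 69 and -0.70 without CFS mouse 70. By a two-sided exact permutation test, p for Ccn2 was 0.1 in CSA against CFA and 0.4 in CSS against CFS. Contractile smooth muscle markers had a median log2 difference of -2.99 in CSA against CFA. Lower Ccn2 there therefore does not by itself check the deletion, and the part of each was not tested. Of the exonic bases of Ccn2, 23.2% overlap the antisense gene Gm15270. CSA mouse 03 stood apart from its group, with a root mean square distance of 1.20 to 1.21 (log2) from CSA mice 01 and 02, which were 0.51 apart, as against 0.59 to 0.74 within the other groups. CFA mouse 72 lay nearer to CSA mice 01 and 02 (1.26 and 1.23) than CFA mice 71 and 74 did (1.46 to 1.51), and its macrophage markers summed to 699 FPKM against 331 and 366 in those mice. Endothelial markers were low in CFS mouse 69, at 120 FPKM against 424 and 426 in CFS mice 70 and 68. Skeletal muscle markers were high in 2 libraries, CFS mouse 68 (summed 165.4 FPKM) and CSS mouse 55 (260.8 FPKM), and lay between 3.29 and 5.07 in the other 10. Nothing in the sources used here gives a sequencing date or batch, so any such batch and the groups cannot be told apart.

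Under Ang II, transcript levels of 7 of these subunits were lower in the CCN2SMCΔ aorta than in the CCN2fl/fl aorta, from 14.9-fold for Itga8 to under 2-fold for Itga1, Itgb1 and Itgb5. Another 2 did not pass and 1 was higher, at an adjusted p under 0.05 by limma, where 21.2% of all 14676 tested genes were lower and 19.5% higher. With the additional limit of an absolute log2 fold change over 1.5, the rule for calling a gene differentially expressed, 4 subunits were lower (Itga8, Itga7, Itga9 and Itgb3; 8.27% of all tested genes) and 1 higher (Itga11; 8.95%). Without CSA mouse 03, which stood apart, the counts were again 7 lower and 1 higher, and the same held when any other mouse was left out. The median difference of the 10 subunits was -0.92 (log2) and that of all tested genes was -0.04. In 7 subunits the CSA mice lay wholly below the CFA mice, and in 1 wholly above them, as did 25.1% and 23.4% of all tested genes.

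**Figure D1:**
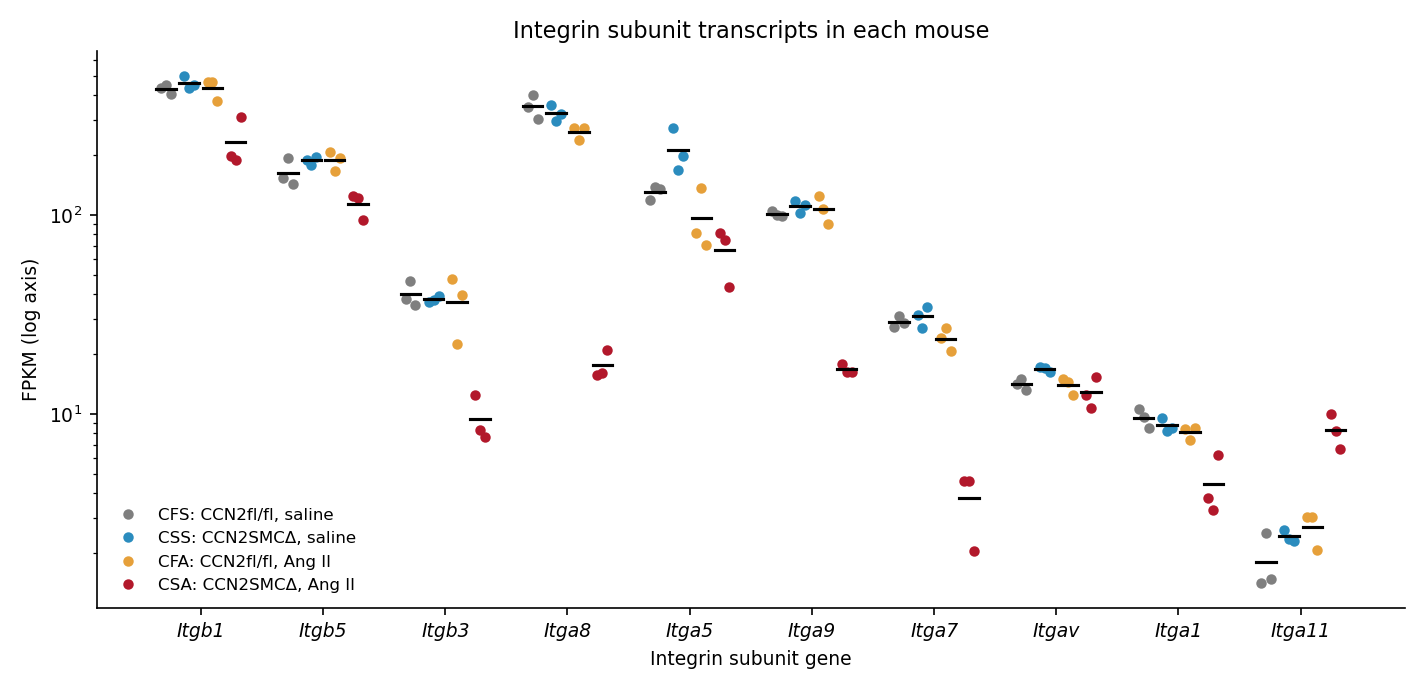
FPKM of the 10 integrin subunits on a log axis, with 1 point per mouse, colours for the 4 groups and a black bar for each group mean (n = 3). In CSA, Itga8 lay between 15.6 and 21.02 FPKM, below the lowest value of 238.6 in the other 9 mice, and Itga11 between 6.64 and 10.02, above the highest value of 3.05.

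Values per mouse are given below in the order of the mouse numbers, 68, 69 and 70 for CFS, 54, 55 and 56 for CSS, 71, 72 and 74 for CFA, and 01, 02 and 03 for CSA. Itga8 (chromosome 2, 12106632 to 12301922 on GRCm38), the α chain of the nephronectin receptor, was the most abundant α subunit of the saline aorta, at 350.4, 403.9 and 305.2 FPKM in CFS and 358.9, 298.7 and 322 FPKM in CSS. It measured 274, 238.6 and 275.7 FPKM in CFA and 15.6, 16.1 and 21.02 FPKM in CSA. The 3 CSA mice were close to each other and far below every other mouse. The mean was 14.9-fold lower in CSA than in CFA (log2 -3.90, SE 0.16, limma adjusted p = 1.4e-07). About 5.05% of its exonic bases overlap the antisense gene E030013I19Rik, and the library kit did not mark strand.

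Itga9 (chromosome 9, 118606690 to 118901003), whose receptor binds tenascin-C and osteopontin, read 124.4, 107.7 and 90.4 FPKM in CFA and 17.9, 16.2 and 16.2 FPKM in CSA. Both saline groups were near the CFA level, with 105, 100.5 and 98.7 FPKM in CFS and 117.3, 102.6 and 112.3 FPKM in CSS. Thus the 9 mice outside CSA overlapped and the CSA mice were well below them. The mean was 6.40-fold lower in CSA than in CFA (log2 -2.66, SE 0.13, limma adjusted p = 4.3e-07).

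Itga7 (chromosome 10, 128933818 to 128958282), the α chain of a laminin receptor of muscle, read 24.0, 27.1 and 20.7 FPKM in CFA and 4.63, 4.63 and 2.05 FPKM in CSA. In saline it read 27.5, 31.2 and 28.8 FPKM in CFS and 31.6, 27.2 and 34.7 FPKM in CSS. The lowest level was that of CSA mouse 03, and the groups CSA and CFA did not overlap. The mean was 6.35-fold lower in CSA (log2 -2.72, SE 0.27, limma adjusted p = 1.9e-05).

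Itga1 (chromosome 13, 114953096 to 115101964), a collagen receptor chain, was far less abundant, at 8.40, 7.38 and 8.48 FPKM in CFA and 3.80, 3.30 and 6.26 FPKM in CSA. CFS mice had 10.6, 9.66 and 8.51 FPKM and CSS mice 9.59, 8.18 and 8.55 FPKM. Its CSA mice were all below the other 9, with mouse 03 nearest to them. The difference from CFA was smaller than for the previous genes but passed the test (log2 -0.90, SE 0.21, limma adjusted p = 0.0049).

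Itga5 (chromosome 15, 103344286 to 103366763), the α chain of the classical fibronectin receptor, read 81.8, 136.2 and 70.7 FPKM in CFA and 81.5, 74.7 and 43.4 FPKM in CSA. These groups overlapped, and the difference did not pass (log2 -0.53, SE 0.29, 95% interval -1.17 to 0.12, limma adjusted p = 0.18). The difference was -0.25 without CFA mouse 72, the highest of its group, -0.24 without CSA mouse 03, the lowest of its group, and -0.19 with array weights. Itgav (chromosome 2, 83724397 to 83806916), the common chain of the vitronectin receptors, read 15.1, 14.6 and 12.4 FPKM in CFA and 12.5, 10.7 and 15.4 FPKM in CSA. It also overlapped between the groups (log2 -0.13, SE 0.14, 95% interval -0.44 to 0.18, limma adjusted p = 0.48). With array weights, which give deviating libraries less influence, Itgav passed at -0.35 (adjusted p = 0.0072). Of its exonic bases, 5.90% are shared with the antisense gene Gm13684.

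Itga11 (chromosome 9, 62677826 to 62783982), the chain of a receptor for fibrillar collagen, ran the other way. It read 1.42, 2.53 and 1.48 FPKM in CFS, 2.61, 2.36 and 2.31 FPKM in CSS, 3.03, 3.05 and 2.07 FPKM in CFA, and 10.02, 8.19 and 6.64 FPKM in CSA. All CSA mice were above the other 9, although the level was still low beside Itga5. The mean was 3.05-fold higher in CSA than in CFA (log2 1.57, SE 0.24, limma adjusted p = 0.0004). Its fold stood near the limit of 1.5, and it was 1.40 without CFA mouse 74, 1.43 without CSA mouse 01 and 1.32 with a pseudocount of 1.

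Among the β subunits, Itgb1 (chromosome 8, 128685654 to 128733200), the shared partner chain, was the highest of the 10 genes in all 12 mice. It read 434, 449.9 and 407.5 FPKM in CFS, 500.1, 433.7 and 453 FPKM in CSS, 465.3, 467.8 and 374.7 FPKM in CFA, and 197.6, 189.5 and 312.1 FPKM in CSA. The CSA mice lay below all others, with mouse 03 well above mice 01 and 02. The mean was 1.87-fold lower in CSA than in CFA (log2 -0.93, SE 0.19, limma adjusted p = 0.0021), and the log2 difference was -1.16 without CSA mouse 03.

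Itgb5 (chromosome 16, 33829665 to 33949338), a partner of αv, read 208.9, 166.3 and 193.3 FPKM in CFA and 125.4, 122.1 and 94.2 FPKM in CSA. Saline levels were 153, 194.1 and 142.9 FPKM in CFS and 190.2, 179.7 and 197.1 FPKM in CSS. Its CSA mice were below all others, by the smallest step of the subunits that passed (log2 -0.74, SE 0.16, limma adjusted p = 0.0036). Itgb3 (chromosome 11, 104608000 to 104670476), the other main partner of αv and also a platelet integrin chain, read 47.8, 22.4 and 39.5 FPKM in CFA and 12.4, 8.28 and 7.67 FPKM in CSA. In saline it read 37.9, 46.5 and 35.3 FPKM in CFS and 36.5, 37.5 and 39.2 FPKM in CSS. The CFA mice were spread widely, yet the lowest of them was above every CSA mouse (log2 -1.90, SE 0.26, limma adjusted p = 0.0002).

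Without Ang II, no receptor subunit passed the test between the genotypes. Between CSS and CFS, 0 of the 10 subunits passed by limma, as did 3 of 14676 genes (0.0204%), and 1 subunit, Itga5, had an unadjusted p under 0.05, as did 6.3% of all tested genes. Itga5 read 272.9, 169.6 and 197.6 FPKM in CSS and 119.3, 138.3 and 135.5 FPKM in CFS. All CSS mice were above all CFS mice, with mouse 54 the highest (log2 0.68, SE 0.29, unadjusted p = 0.042, limma adjusted p = 0.77). Itgav was likewise higher without overlap, at 17.2, 17.1 and 16.4 FPKM in CSS against 14.2, 15.0 and 13.2 FPKM in CFS, but its difference of 0.26 (SE 0.14, limma adjusted p = 0.90) did not pass. Groups without overlap in the higher direction were seen in these 2 of the 10 subunits and in 11.1% of all tested genes. For the other 8 subunits the differences ran from -0.12 (Itga1) to 0.45 (Itga11).

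Ang II by itself also gave no call among the subunits. In CCN2fl/fl mice, 0 of the 10 passed between CFA and CFS, as did 5 of 14676 genes (0.0341%) by limma, and 2 subunits (Itga8 and Itga11) had an unadjusted p under 0.05, as did 9.42% of all tested genes. Itga8 was lower in each CFA mouse than in each CFS mouse by the values given above, a difference of -0.42 (SE 0.16, unadjusted p = 0.021, limma adjusted p = 0.42). Itga11 overlapped between these groups (0.59, SE 0.24, unadjusted p = 0.035, limma adjusted p = 0.48). For 3 subunits (Itga1, Itga7 and Itga8) the CFA mice lay wholly below the CFS mice, as in 10.8% of all tested genes.

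In CCN2SMCΔ mice, Ang II and saline were far apart. Of the 10 subunits, 9 were lower and 1 (Itga11) higher in CSA than in CSS by limma, with 23.9% and 22.3% of all tested genes in those directions, and 5 were differentially expressed lower (9.36%) and 1 higher (10.9%). The additional subunit past the fold limit here was Itga5, at 66.5 ± 20.3 FPKM in CSA (SD, n = 3) and 213 ± 53.4 in CSS (log2 -1.70, SE 0.29, limma adjusted p = 0.00068). Its difference was -1.42 without CSA mouse 03 and -1.45 with array weights, both short of the fold limit. Itga8 differed by -4.22 (SE 0.16, limma adjusted p = 7.0e-08) and Itga11 by 1.71 (SE 0.24, limma adjusted p = 0.00018). Itgav was the smallest of these differences (-0.40, SE 0.14, limma adjusted p = 0.036), and it did not pass under 8 of 20 alternatives. CSA is compared with CFA and with CSS, and CFS with CSS and with CFA, so these comparisons share mice.

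**Figure D2:**
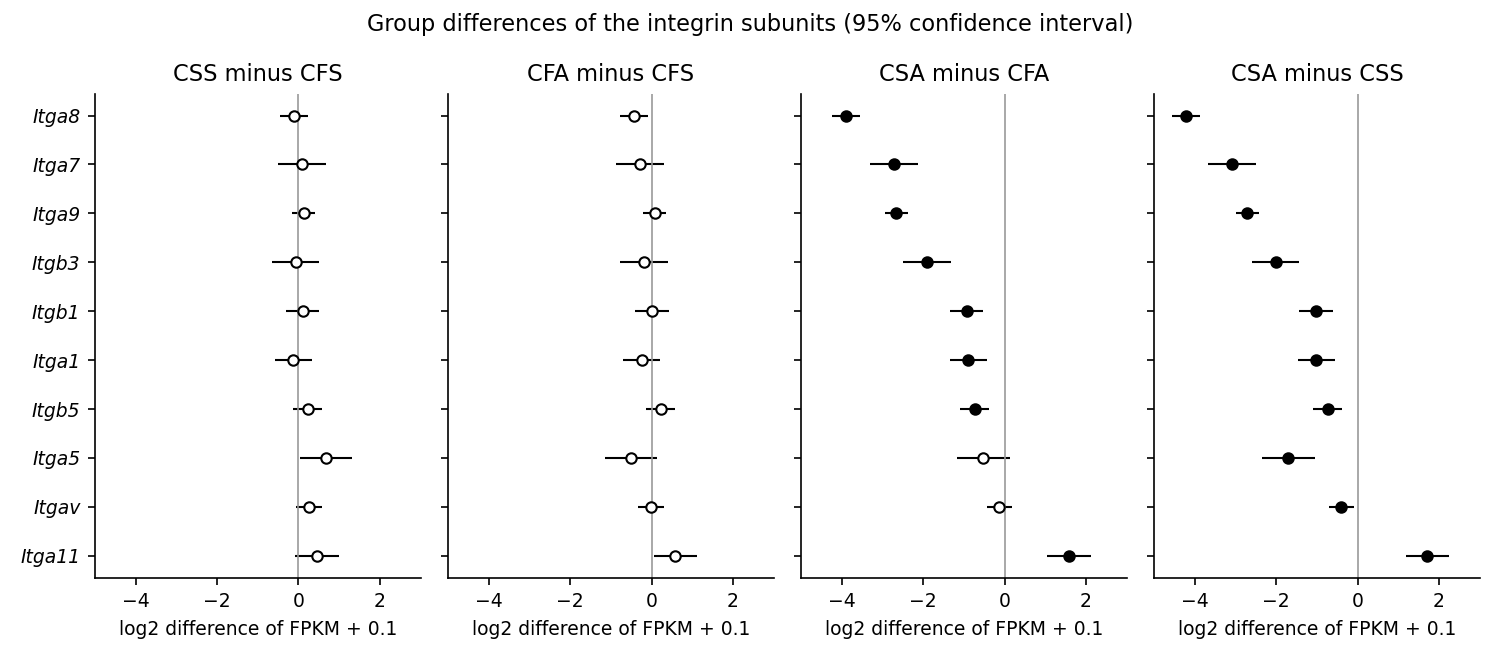
Log2 difference of FPKM + 0.1 (horizontal axis) for the 10 subunits in 4 comparisons, with the 95% confidence interval from limma as a bar. Filled points passed at an adjusted p under 0.05, 0 of 10 in the comparisons without CSA, 8 of 10 in CSA against CFA and 10 of 10 in CSA against CSS.

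Whether the genotype difference under Ang II differed from that under saline was tested as an interaction. It passed by limma for 6 subunits in the lower direction (Itga8, Itga9, Itga7, Itgb3, Itgb1 and Itgb5) and 1 in the higher direction (Itga11), as in 13.7% and 12.8% of all tested genes. The size ran from -3.80 (SE 0.22, adjusted p = 5.3e-06) for Itga8 to -0.96 (SE 0.23, adjusted p = 0.0097) for Itgb5. Itga11 passed narrowly at 1.13 (SE 0.34, limma adjusted p = 0.033), and this call was lost in 7 of the 12 fits that left out 1 mouse. Itga5 was just beyond the threshold at -1.20 (SE 0.41, limma adjusted p = 0.054), and it passed in 5 of 19 alternatives, among them without CFA mouse 74 (limma adjusted p = 0.041) and without CSA mouse 01 (limma adjusted p = 0.040). Itga1 did not pass at -0.77 (SE 0.29, limma adjusted p = 0.074), but passed at -1.04 without CSA mouse 03 (limma adjusted p = 0.000957). Itgav did not pass at -0.39 (limma adjusted p = 0.18), but passed at -0.53 without CSA mouse 03 (limma adjusted p = 0.017). With array weights Itga1, Itga5 and Itgav all passed in the lower direction.

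Since FPKM are per length, the make-up of the α chains could be set out within each mouse. The summed FPKM of the 7 α subunits was 640 ± 55.9 in CFS, 710 ± 93.2 in CSS, 515 ± 30.1 in CFA and 130.3 ± 17.8 in CSA (SD, n = 3). In relation to Itgb1, that sum was 1.49 ± 0.063 in CFS, 1.53 ± 0.089 in CSS, 1.19 ± 0.082 in CFA and 0.60 ± 0.21 in CSA. Thus the α chains together were above Itgb1 in the 9 mice outside CSA and below it in the 3 CSA mice.

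Itga8 made up 55% ± 3.07 of the α transcripts in CFS, 46.2% ± 1.73 in CSS, 51.2% ± 6.38 in CFA and 13.9% ± 4.42 in CSA (SD, n = 3). The place of the leading α chain in CSA was taken by Itga5, with 50.2% ± 9.66 against 18.5% ± 6.02 in CFA, although its level in FPKM was not higher. Itgav accounted for 10.1% ± 3.25 in CSA and 2.72% ± 0.12 in CFA, and Itga11 for 6.32% ± 0.47 and 0.52% ± 0.081. The ratio of Itga5 to Itga8 was 2.06 to 5.21 in CSA, and 0.26 to 0.76 in the other 9 mice. For each of these 4 shares and for the ratio the CSA and CFA mice did not overlap, and the two-sided exact permutation p was 0.1, the smallest that 3 against 3 mice can give. The shares of all 7 α chains add to a whole, so they do not move independently.

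Already in saline, Itga8 had a lower share and Itga5 a higher share in CSS than in CFS, without overlap, whereas the FPKM of Itga8 overlapped between these groups (log2 -0.11) and the higher FPKM of Itga5 did not pass. Itga5 ran from 27.1% to 33.7% in CSS and from 19.0% to 22.9% in CFS (exact permutation p = 0.1). Among the β partners of αv, the ratio of Itgb5 to Itgb3 was 4.09 ± 0.074 in CFS, 5.01 ± 0.21 in CSS, 5.57 ± 1.64 in CFA and 12.4 ± 2.32 in CSA (SD, n = 3), with CSA above CFA in every mouse (exact permutation p = 0.1).

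**Figure D3:**
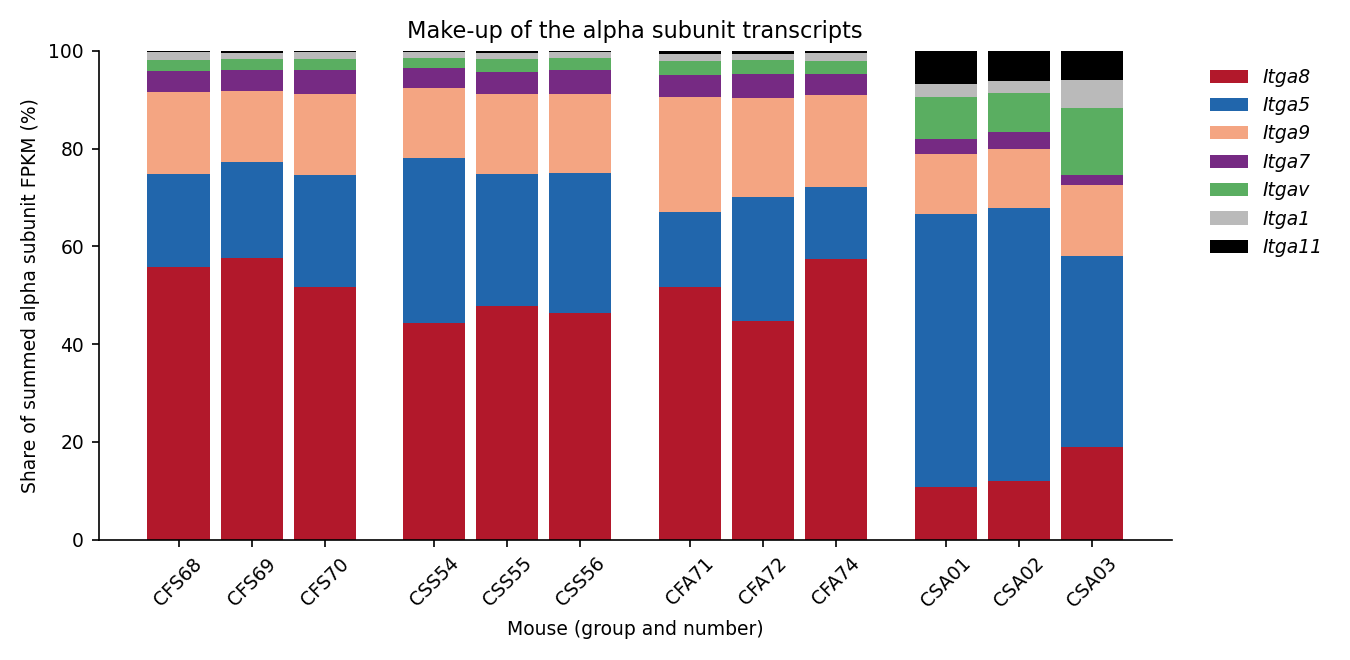
Share of each α subunit in the summed FPKM of the 7 α subunits, in percent, with 1 stacked bar per mouse. Itga8 held 44.3% to 57.6% in the 9 mice outside CSA and 10.7% to 18.9% in CSA, where Itga5 held 39.1% to 55.8%.

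Ranked within each mouse, Itga8 held rank 2, next to Itgb1, in all 9 mice outside CSA, and rank 4 or 5 in CSA. Itgb5 held rank 2 and Itga5 rank 3 in each CSA mouse. Itga11 was the lowest of the 10 outside CSA and held rank 8 in CSA, above Itga1 and Itga7. Over the groups, the mean of Itga8 was ordered CFS, CSS, CFA and CSA from high to low, with CFS and CSS overlapping and CSA apart. Itga5 was ordered CSS, CFS, CFA and CSA, and of these neighbours only CSS and CFS did not overlap. For Itga1, Itga9, Itgb1, Itgb3 and Itgb5 the other 3 groups overlapped with their neighbours in the order. In each of these subunits CSA stood apart at the low end.

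The ligands that these receptors bind did not all follow them. Of 25 matrix ligands and activators listed, 14 were lower, 7 were higher and 4 did not pass in CSA against CFA by limma. Among all tested genes, 21.2% were lower and 19.5% higher. The median difference of the list was -0.77, against -0.04 for all tested genes. Npnt (nephronectin), the high-affinity ligand of α8β1, read 191.6, 232.7 and 149.9 FPKM in CFA and 20.2, 19.1 and 19.9 FPKM in CSA. Its CSA mice were far below all CFA mice, and the difference of -3.25 (SE 0.16, limma adjusted p = 4.3e-07) was the lowest of the 25 genes. Mfge8, an RGD protein that binds αv integrins, was lower by 4.88-fold (log2 -2.40, SE 0.32, limma adjusted p = 0.00014), and Lama2, a laminin chain of muscle, by 4.53-fold (log2 -2.12, SE 0.15). Lama5, another laminin chain, differed by -2.05 (SE 0.36, limma adjusted p = 0.00098).

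Spp1 (osteopontin), a ligand of α9β1 and of αv integrins, was the highest of the list. It read 9.22, 44.6 and 6.30 FPKM in CFA and 368.2, 430.3 and 589.2 FPKM in CSA, so that the lowest CSA mouse was well above the highest CFA mouse (log2 5.03, SE 0.66, limma adjusted p = 0.00013). Thbs1, the matricellular thrombospondin, was 2.17-fold higher (log2 1.20, SE 0.28, limma adjusted p = 0.0054). Lamb1, a laminin chain, was 2.11-fold higher (1.05, SE 0.30, limma adjusted p = 0.017).

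Among collagens, Col1a1, a ligand chain of α11β1 and α1β1, read 1512, 1383 and 1422 FPKM in CFA and 3262, 2561 and 2647 FPKM in CSA (log2 0.96, SE 0.16, limma adjusted p = 0.00053). Col4a1, of the basement membrane, was lower (-0.88, SE 0.21, limma adjusted p = 0.0058). The groups did not overlap for either gene.

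Fn1 (fibronectin), the ligand of α5β1, read 623, 640 and 527.3 FPKM in CFS, 1315, 1051 and 1185 FPKM in CSS, 924.4, 864.6 and 564.9 FPKM in CFA, and 423.7, 345.8 and 405.6 FPKM in CSA. Its CSS mice were above all others and its CSA mice below all others. Against CFA it was lower in CSA (-0.98, SE 0.19, limma adjusted p = 0.0019), while CSS against CFS did not pass (0.99, SE 0.19, unadjusted p = 0.00034, limma adjusted p = 0.19). Tnc (tenascin-C) was lower in CSA than in CFA (-0.71, SE 0.19, limma adjusted p = 0.011). Vtn (vitronectin) was near 1 to 4 FPKM in CSA, and its difference of 1.12 (SE 0.62, limma adjusted p = 0.17) did not pass.

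Transcripts of the adhesion complex inside the cell were more often lower than higher in CSA. Of 35 listed, 34 were tested, and 18 were lower, 5 higher and 11 did not pass in CSA against CFA by limma. Among all tested genes, 21.2% were lower and 19.5% higher. The list had a median of -0.75. Lims2, an adaptor of the integrin-linked kinase complex, was 8.72-fold lower (log2 -3.21, SE 0.27), Tns1 (tensin 1) 8.68-fold lower (-3.20, SE 0.27) and Csrp1, a muscle LIM protein, 6.24-fold lower (-2.64, SE 0.22). Of the genes whose products bind β tails, Tln1 (talin 1) was 1.93-fold lower (-0.98, SE 0.18, limma adjusted p = 0.0015) and Fermt2 (kindlin-2) 2.82-fold lower (-1.51, SE 0.16, limma adjusted p = 2.7e-05). Tgfb1i1 (Hic-5), an adhesion adaptor, was 2.93-fold lower (-1.55, SE 0.13, limma adjusted p = 7.9e-06).

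Among the kinases of the complex, Ptk2 (focal adhesion kinase) differed by -0.39 (SE 0.17, limma adjusted p = 0.088) and did not pass. Ilk differed by -2.08 (SE 0.94, limma adjusted p = 0.10), but 89.7% of its exonic bases are shared with other genes, and it was listed at 0 in CSA mouse 03. The 3 highest of the list were Parvg (γ-parvin; 3.80, SE 0.35), Fermt3 (kindlin-3; 2.33, SE 0.30) and Ptk2b (Pyk2; 1.71, SE 0.32), which are known from blood cells. Parvg reached 1 FPKM in fewer than 3 mice outside CSA, so it was tested only through the CSA mice. For Fermt3, the CSA mice read 44.2, 42.7 and 19.9 FPKM and the CFA mice 5.64, 9.54 and 5.29 FPKM.

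**Figure D4:**
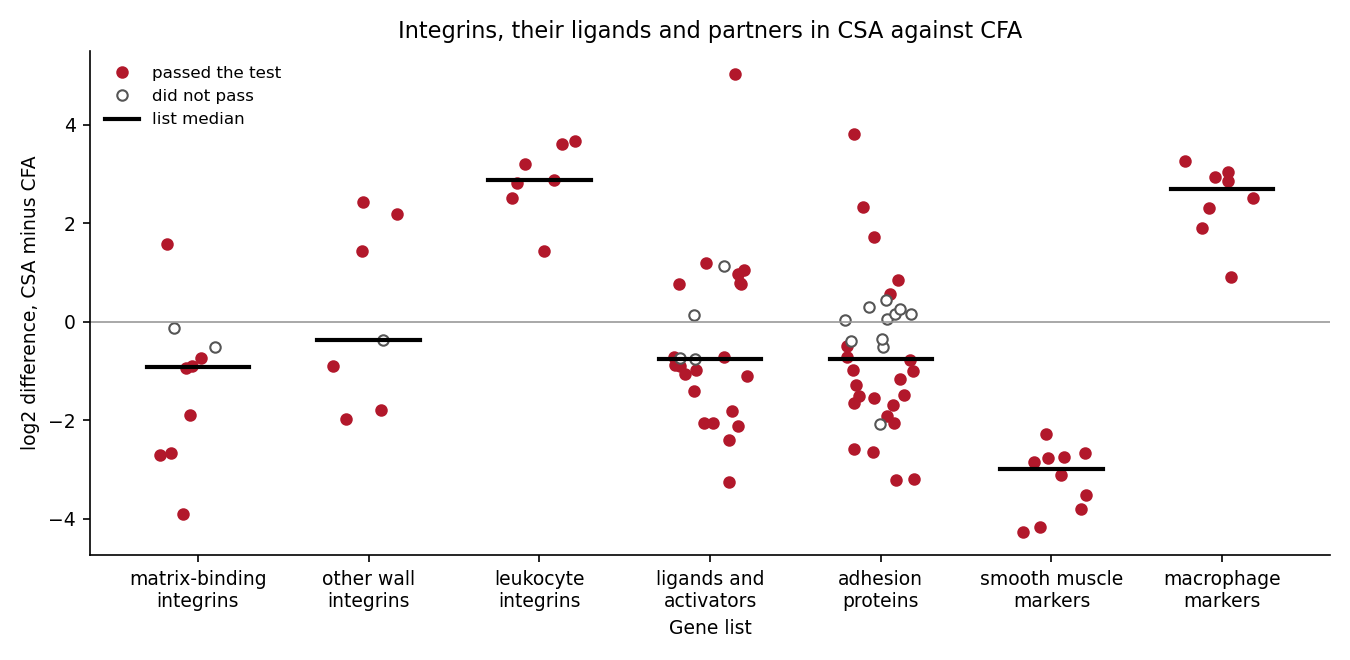
Log2 difference of CSA minus CFA (vertical axis) for the tested genes of 7 lists, with 1 point per gene, filled where it passed by limma, and a black bar at the median of each list. The medians were -0.92 for the 10 subunits, 2.87 for leukocyte integrins, -2.99 for smooth muscle markers and 2.68 for macrophage markers.

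Other integrin subunits of the wall were split. Of 8 listed, 7 were tested, and 3 were lower, 3 higher and 1 did not pass in CSA against CFA by limma. Among all tested genes, 21.2% were lower and 19.5% higher. The list had a median of -0.36. Itga3, a laminin receptor chain, read 38.9, 35.5 and 33.1 FPKM in CFA and 10.9, 10.5 and 6.38 FPKM in CSA (-1.98, SE 0.19, limma adjusted p = 1.7e-05). Itgb4, of hemidesmosomes, differed by -1.79 (SE 0.59, limma adjusted p = 0.031), and Itga10, a collagen receptor chain of which 33.5% of exonic bases are shared with another gene, by -0.91 (SE 0.23, limma adjusted p = 0.0093).

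Higher in CSA were Itga2, a collagen receptor chain, at 4.68, 3.20 and 6.42 FPKM against 0.71, 1.01 and 0.62 in CFA (log2 2.43, SE 0.33, limma adjusted p = 0.00016), and Itga6, a laminin receptor chain, at 12.9, 11.7 and 18.1 FPKM against 2.45, 2.93 and 3.70 (2.19, SE 0.29, limma adjusted p = 0.00015). Itgb8, a partner of αv that binds latent TGF-β, was also higher, at 2.14, 1.54 and 3.88 FPKM against 0.87, 0.61 and 0.98 (1.44, SE 0.36, limma adjusted p = 0.0084). The groups did not overlap for these 3 genes. Of them, Itga2 reached 1 FPKM outside CSA in CFA mouse 72 alone, so it was tested only through the CSA mice. Itgb6, another αv partner, was at or below 0.027 FPKM in all 12 mice and was not tested. Itga2b, the platelet partner of Itgb3, overlapped between CSA and CFA (-0.36, SE 0.58, limma adjusted p = 0.65).

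Leukocyte integrins stood in contrast to the matrix-binding subunits. In CSA against CFA, 19.5% of all tested genes were higher by limma. All 7 tested of 9 listed leukocyte integrins were higher, with a median of 2.87. Of these, Itgae, Itgax and Itgam reached 1 FPKM in fewer than 3 mice outside CSA, so they were tested only through the CSA mice. Itgb2, the β chain of the leukocyte family, read 5.99, 13.1 and 5.47 FPKM in CFA and 74.2, 66.2 and 69.6 FPKM in CSA (log2 3.20, SE 0.31, limma adjusted p = 1.9e-05). Itgax (3.66, SE 0.47) and Itgam (3.61, SE 0.39), α chains of myeloid cells, showed the highest differences of the list, but 68.7% of the exonic bases of Itgam are shared with the gene Gm49368 on the same strand. All CSA mice were above all CFA mice for each of the 7, as in 23.4% of all tested genes.

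Markers of cell types moved with these results. Beside the marker counts, 21.2% of all tested genes were lower and 19.5% higher in CSA against CFA by limma. All 10 contractile smooth muscle markers were lower in CSA than in CFA (limma; median -2.99), led by Synpo2 (-4.28), Myh11 (-4.17) and Cnn1 (-3.80), and their summed level was 823 to 977 FPKM in CSA, 5699 to 8597 in CFA, 7911 to 8964 in CSS and 8413 to 10561 in CFS. No marker of that list was at 0 in any group, but 67.9% of the exonic bases of Tagln are shared with other genes. The 8 macrophage markers were all higher (median 2.68), led by Cd14 (3.26), Cd68 (3.04) and Adgre1 (2.93), with sums of 2298 to 2534 FPKM in CSA and 331 to 699 in CFA. Neutrophil markers summed to 508 to 556 FPKM in CSA and 11.01 to 27.9 in CFA. Lymphocyte markers were higher in 5 of the 6 tested (median 3.57), with sums of 23.6 to 31.7 FPKM in CSA and 1.64 to 3.75 in CFA. Each of the 6 reached 1 FPKM in fewer than 3 mice outside CSA, so they were tested only through the CSA mice. Cd3d, Cd3e and Cd3g reached it in CSA alone. With any 1 CSA mouse left out they fell under the filter, and 2 markers were higher. Adipocyte markers were lower in 4 of 7 (median -2.63), with sums of 13.1 to 54.7 FPKM in CSA and 65.4 to 182.7 in CFA.

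Of the fibroblast markers, 2 of 8 were higher (Lum and Mfap5) and 3 lower (Clec3b, Pi16 and Dpt), with sums of 1202 to 1757 FPKM in CSA and 1241 to 1319 in CFA. Endothelial markers had 1 higher (Emcn) and 3 lower (Vwf, Tek and Pecam1) of 8, with 1 lower when CFA mouse 71 or CSA mouse 02 was left out, with sums of 138 to 170 FPKM against 243 to 464. Platelet markers, which bear on Itgb3, had 1 lower (Gp1ba, log2 -1.26) and 0 higher of the 5 tested by limma (median -1.02), with 0 lower without CFA mouse 71 and 2 without CFA mouse 72. Their sums of 24.0 to 54.4 FPKM in CSA and 35.8 to 49.5 in CFA consist mainly of Pf4 (mean 31.7 and 27.7 FPKM). Gp9 averaged 0.25 FPKM in CSA and 3.03 in CFA, and Ppbp 2.90 and 6.56, with overlap and without passing. Both were lowest in mouse 72 of the CFA mice, as was Itgb3, but Pf4 was highest there (34.4 FPKM). The platelet sum of that mouse, 37.6 FPKM, lay between 35.8 in mouse 74 and 49.5 in mouse 71. In whole aorta, fewer cells of a type and less transcript per cell cannot be told apart, and the part of these cell types in the integrin differences was not tested.

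The genes whose pattern was most like that of each subunit were sought among 7750 tested genes with a symbol and a mean of at least 5 FPKM, by Pearson correlation of log2 values. For all subunits but Itga5 and Itgav the CSA mice stood apart from the other mice, and there r over 12 mice mainly reflects that gap. For every subunit r over the 9 other mice is given beside it. Those 9 mice were among the 12 by which the genes were picked, so that r is not an independent check. Itga8 was most like Myh11, the smooth muscle myosin heavy chain (r = 0.999 over 12 mice, 0.946 over 9), followed by Pkp4 (0.999 and 0.880). Itga7 was most like Bcam, a laminin-binding adhesion protein (0.997 and 0.851), and Lamb2, a laminin chain (0.997 and 0.864).

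Itga9 was most like Ptprz1 (r = 0.997 and 0.783) and Npnt (0.996 and 0.690). Itga11 was most like Cx3cr1, the fractalkine receptor of myeloid cells (0.991 and 0.967), and Lsp1, a leukocyte protein (0.980 and 0.892). Itgb1 paired with Pdxdc1 (0.993 and 0.930) and Nbeal1 (0.991 and 0.953), Itga1 with Akap11 (0.993 and 0.907) and Prkacb (0.991 and 0.932), and Itgb3 with Heyl, a Notch target (0.991 and 0.935), and St5 (0.982 and 0.829). For the remaining subunits r was 0.929 and 0.878 for Itga5 with Brd2, 0.938 and 0.898 for Itgav with Enpp1, and 0.962 and 0.796 for Itgb5 with Lix1l.

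**Figure D5:**
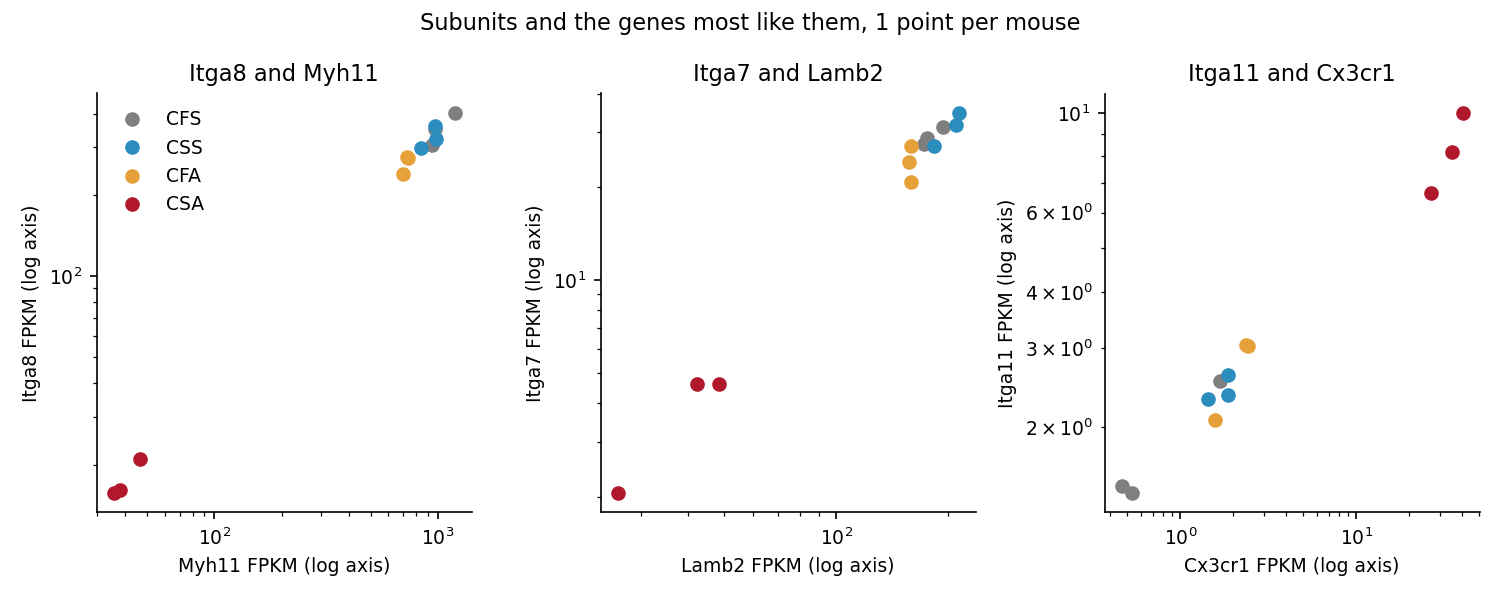
FPKM of Itga8, Itga7 and Itga11 against Myh11, Lamb2 and Cx3cr1 on log axes, with 1 point per mouse and a colour per group. The CSA mice lie apart in each panel, and the r over the other 9 mice was 0.946, 0.864 and 0.967. The genes were picked by r over all 12 mice, so the r over 9 is not an independent check.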

How the data were processed

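RNA-Seq from abdominal aorta of 12 male mice (4 groups of 3) was used, and groups were taken from the sample labels. The authors deposited FPKM, 1 value per gene and mouse. The submitters' processing notes name HISAT2 2.0.5, StringTie 1.3.3b, featureCounts 1.5.0-p3 and mm10. The annotation release and the scaling between libraries are not given in the sources used here. The deposited FPKM have equal median ratios in all 12 libraries. Scaling by median of ratios, though counted among the alternatives, therefore only repeats the main fit. Symbols, positions and exon lengths came from GENCODE M21 on GRCm38. With those lengths, 97.8% to 98.4% of values under 100 fragments came out whole (tolerance 0.02), and the summed fragments were taken as depth. No columns of comparisons were used.

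Log2(FPKM + 0.1) was fitted in R 4.3.3 with limma 3.58.1 (lmFit, eBayes with trend and robust) over all 12 libraries, for the 14676 genes that reached 1 FPKM in 3 or more libraries. Benjamini-Hochberg adjustment ran over these genes. A gene passed at an adjusted p under 0.05 and was differentially expressed with an absolute log2 fold change over 1.5 as well. Fold changes on this scale understate low genes. The fit was tested on simulated data first. Shares were compared by two-sided exact permutation tests. Tables were made with pandas 2.3.3 and numpy 2.4.6 in Python 3.11.15, figures with matplotlib 3.10.9.

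The subunits and lists were chosen with earlier results of these data known. Genes named beside the 10 subunits are up to 3 passing genes per direction of each list in CSA against CFA, partner subunits, ligands and adhesion proteins of the subunits, and the 2 genes most like each subunit. Alternatives were a pseudocount of 1, no filter, a filter at a mean of 5 FPKM, scaling to library totals or by median of ratios, eBayes without trend or robust, array weights, only the groups compared, each mouse left out, more α subunits in the shares, and medians of shares.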

Additional observations from a re-analysis of the deposited data

Results flagged for a closer look

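For 7 subunits the effect of genotype under Ang II (CSA against CFA) differed from that under saline (CSS against CFS) by limma's interaction test, on the log2 scale. The difference of the effects was -3.80 for Itga8, -2.81 for Itga7, -2.79 for Itga9, -1.83 for Itgb3, -1.04 for Itgb1, -0.96 for Itgb5 and 1.13 for Itga11. Under Ang II all 3 CSA mice were on 1 side of all 3 CFA mice for each of the 7 subunits. Among all tested genes, the CSA mice lay wholly below the CFA mice in 25.1% and wholly above them in 23.4%. Under saline the CSS and CFS mice overlapped for each of the 7 subunits. The summed level of 10 contractile smooth muscle markers moved in the same groups, and its part in these differences was not tested.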

How the results depend on the processing

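In CSA against CFA, 7 subunits were lower in all alternatives but array weights, which gave 8, and 4 were differentially expressed lower in all of them. Between CSS and CFS and between CFA and CFS, 0 of the 10 passed in any alternative, although the few calls over all genes there moved widely. In CSS against CFS they were 66 lower and 82 higher with array weights, 29 and 46 with only the groups compared and 33 and 37 without CSA 03. In CFA against CFS they were 165 and 336 with array weights, 32 and 152 without CFA 74 and 18 and 45 without CSA 03. They fell to 0 in both directions without CFS 68, CSS 54 or CSS 56 in either comparison, and in CFA against CFS also without CFS 70, CFA 71 or CFA 72 and with only the groups compared. No paired analysis was possible because the groups share no mouse numbers.

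Calls of Itga11, the single higher subunit, changed with several choices. At a mean of 5 FPKM or more it was not among the tested genes, so that 0 subunits were higher in CSA against CFA, in CSA against CSS and in the interaction. With a pseudocount of 1, 0 were differentially expressed higher in either comparison with CSA, and with no filter 0 were higher in the interaction. Leaving out 1 mouse at a time gave 0 to 1 differentially expressed higher in CSA against CFA (0 without CFA 74 or CSA 01) and 0 to 1 higher in the interaction (0 without CFS 69, CSS 54, 55 or 56, CFA 74, CSA 01 or 02). The mean filter, which tests fewer genes, also left 1 other wall integrin, 2 leukocyte integrins and 3 adhesion genes higher in CSA against CFA. Adhesion genes numbered 3 with only the groups compared and 3 to 5 with 1 mouse left out.

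Signs turned only in comparisons without CSA, where no subunit passed. Itgav and Itgb3 in CFA against CFS were 0.044 and 0.065 with array weights, and with 1 mouse left out they ran from -0.066 to 0.071 and from -0.41 to 0.13. In that comparison Itga9 ran from -0.038 to 0.19 and Itgb1 from -0.043 to 0.12, and Itgb3 in CSS against CFS ran from -0.15 to 0.044. The cause was not tested.

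With Itga2, Itga3, Itga4, Itga6 and Itga10 in the α sum, shares moved to 51.1% (CFS) and 42.7% (CSS) for Itga8, 39.6% (CSA) for Itga5, 2.05% (CFS) and 2.50% (CFA) for Itgav, 4.96% (CSA) for Itga11, 14.5% (CSS) and 10.1% (CSA) for Itga9, 4.24% (CFS) for Itga7 and 1.15% (CSS) for Itga1, and the α sum over Itgb1 to 1.60 (CFS), 1.65 (CSS) and 1.29 (CFA), because the sum is larger.

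The thinnest values rest on 131 fragments for Itga11 outside CSA and 254 for Itga7 in CSA. With 2 mice left in a group, their spread is taken to be that of the other groups.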
